A study of Homo sapiens with 4 samples.

Results

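The loss of 9 pluripotency factors was followed through hematopoietic differentiation of BC1 cells, an established human line of induced pluripotent stem cells. The factors were POU5F1, NANOG, PRDM14, ZFP42, DPPA4, L1TD1, UTF1, USP44 and SALL4. They were taken by gene symbol from a table of 58274 genes, each symbol matched 1 gene, and each gene stood on 1 row. They were named with earlier results of these data known, as factors lost at different speeds, so their losses are described here and not tested.

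RNA was sequenced from 4 populations with 1 library each. Undifferentiated BC1 cells were the starting point. APLNR+ cells were collected at day 2, after activin A and BMP4, and CD31+CD34+ cells at day 5 and CD43+ cells at day 8, after the medium had been changed to VEGF and bFGF. The study calls the APLNR+ cells mesoderm, the CD31+CD34+ cells hemogenic endothelial progenitors and the CD43+ cells hematopoietic progenitors. All of them came from the same line and carried no engineered change in the labels. With 1 library per population, no difference has a replicate check and no p-value is given. An interval in the text is an exact Clopper-Pearson 95% interval from approximate numbers of fragments, and it covers counting error only.

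Pluripotent cells hold themselves undifferentiated through a small set of mutually supporting transcription factors, with POU5F1 (also known as OCT4), SOX2 and NANOG at the centre. These factors keep their own genes and those of their partners active and hold lineage genes silent. When cells leave this state the set is taken apart, and in the embryo its members do not go together. POU5F1 and NANOG, for example, are still found in the primitive streak, where mesoderm forms.

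The level of a gene is given in FPKM, fragments scaled to transcript length and to the number of mapped fragments, which can be compared between genes. The libraries held between 19660000 and 23600000 mapped fragments, as read from the steps between low values. The genes of the sorting markers were far higher in the population sorted for them than in the population before it, with APLNR at 1073 FPKM on day 2 against 0.782 FPKM before. CD34 and PECAM1 (CD31) were at 102.1 and 93.1 FPKM on day 5 against 0.645 and 0.460 FPKM on day 2, and SPN (CD43) was at 92.4 FPKM on day 8 against 11.7 FPKM on day 5. Of 10 reference genes, the median was 104%, 87.5% and 112% of its level in BC1 in the 3 differentiated populations, with B2M furthest above, at 851% in CD43+. In bulk RNA, fewer cells that express a gene and less RNA per cell cannot be told apart.

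The sequences just before the start sites of 4 of the factors are shown because they stand for the fast and the slow losses described below. Promoters of 5 of the 9 factors were matched by symbol in RefSeq on GRCh38.p14. Each sequence covers the 200 bases from 250 to 51 bases before the start, 5′ to 3′ on the strand of the gene. Capitals mark TTTGCAT, the core of the octamer that POU factors bind, ACAATG, a SOX element, and GGGCGG, a GC box, on either strand, where the boxes of UTF1 overlap in pairs by 1 base. NANOG and UTF1 were lost fast, ZFP42 and L1TD1 slowly. The windows are chr12:7789152-7789351 for NANOG, chr10:133229967-133230166 for UTF1, chr4:187995521-187995720 for ZFP42 and chr1:62194599-62194798 for L1TD1, all on the plus strand.
NANOG: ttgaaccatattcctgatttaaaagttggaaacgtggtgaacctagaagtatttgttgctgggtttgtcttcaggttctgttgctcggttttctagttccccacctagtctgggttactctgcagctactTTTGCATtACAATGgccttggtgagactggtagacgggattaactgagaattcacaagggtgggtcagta
UTF1: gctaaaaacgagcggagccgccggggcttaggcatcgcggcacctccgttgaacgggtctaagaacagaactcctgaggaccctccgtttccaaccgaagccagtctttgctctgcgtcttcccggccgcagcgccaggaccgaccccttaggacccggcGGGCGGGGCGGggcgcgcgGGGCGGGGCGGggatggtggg
ZFP42: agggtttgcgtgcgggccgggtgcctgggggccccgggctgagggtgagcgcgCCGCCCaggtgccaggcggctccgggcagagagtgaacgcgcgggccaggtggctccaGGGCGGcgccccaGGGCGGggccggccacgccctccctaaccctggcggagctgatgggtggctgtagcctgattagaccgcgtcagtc
L1TD1: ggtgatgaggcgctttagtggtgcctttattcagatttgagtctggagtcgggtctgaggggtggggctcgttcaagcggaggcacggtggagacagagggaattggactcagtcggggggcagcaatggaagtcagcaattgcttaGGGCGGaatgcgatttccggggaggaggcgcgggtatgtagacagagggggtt

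The promoter of NANOG held the octamer core 120 bases before the start and the SOX element 112 bases before it, with a single base between them. Over the same window in 27305 promoters, 1 per gene, 3.30% held the octamer core and 7.59% held the SOX element on either strand. NANOG was the only promoter of the 27305 with both in this arrangement, and an exact match of this length is rare in any case. Whether such motifs go with the speed of loss was not tested. The promoter of UTF1 held no octamer core and no SOX element but 4 GC boxes, and its GC content was 69.5%, against 44.0% for NANOG. The promoter of ZFP42 had 3 GC boxes and a GC content of 75.5%, and that of L1TD1 had 1 GC box and 58.0%. A GC box was in 34.7% of all promoters, and their median GC content was 57.0%. DPPA4, on the minus strand at chr3:109337597-109337796, had none of the motifs and a GC content of 40.5%. A match is a description of letters and not of binding.

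In BC1 the levels of the 9 factors spanned from 23.6 FPKM for NANOG to 1997 FPKM for POU5F1. POU5F1 alone made up 73.1% of their summed FPKM. This sum was 2731 FPKM at the start, 818.5 FPKM on day 2, 55.8 FPKM on day 5 and 44.8 FPKM on day 8, so that nearly all of it was gone by day 5. The order of the levels had turned over by then. DPPA4 and SALL4 were the highest in CD31+CD34+ and in CD43+, and POU5F1 held 3.34% and 0.525% of the sum.

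**Figure D1:**
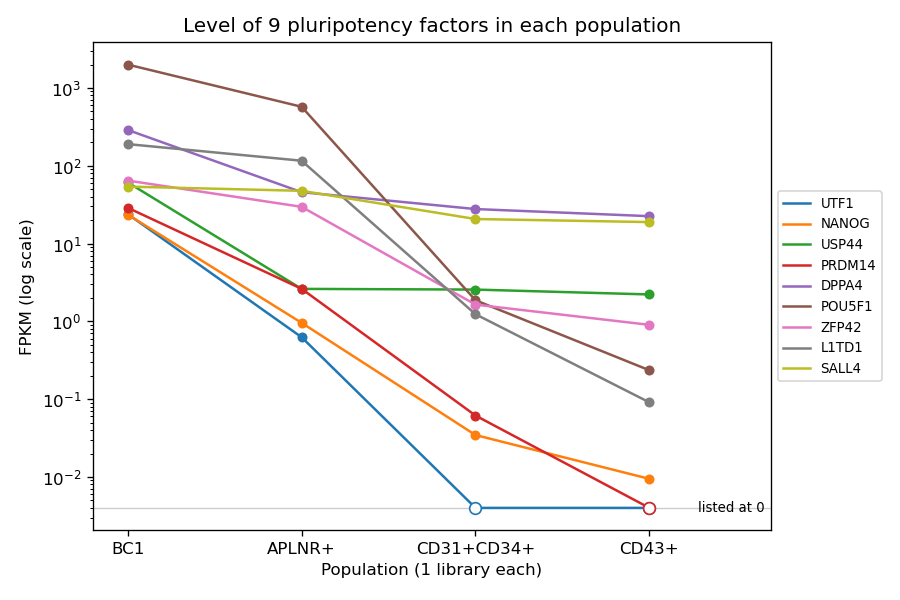
FPKM of the 9 factors on a log scale (y axis) in the 4 populations in order of differentiation (x axis), 1 library each; lines join the values of a gene, and open circles mark values listed at 0. POU5F1 goes from 1997 FPKM in BC1 to 0.235 FPKM in CD43+, whereas DPPA4 and SALL4 end at 22.5 and 18.9 FPKM.

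How much of each factor was left on day 2 was asked first. By APLNR+, 4 of the 9 factors (UTF1, NANOG, USP44 and PRDM14) were below 10% of their level in BC1, which was true of 3.96% of the 14335 genes with at least 1 FPKM in BC1. The members' median was 15.9% of BC1, against 95% over those genes. SALL4 stood at the other end, at 88.3% (95% interval 82.5 to 94.4). The order of losses ran from UTF1 through NANOG, USP44, PRDM14, DPPA4, POU5F1 and ZFP42 to L1TD1 and SALL4. The intervals of UTF1, NANOG and USP44 overlapped in this order, and those of all later neighbours did not. The interval of PRDM14 reached over the 10% line. With a line at 5% PRDM14 was left out, and with a line at 20% DPPA4 was added.

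**Figure D2:**
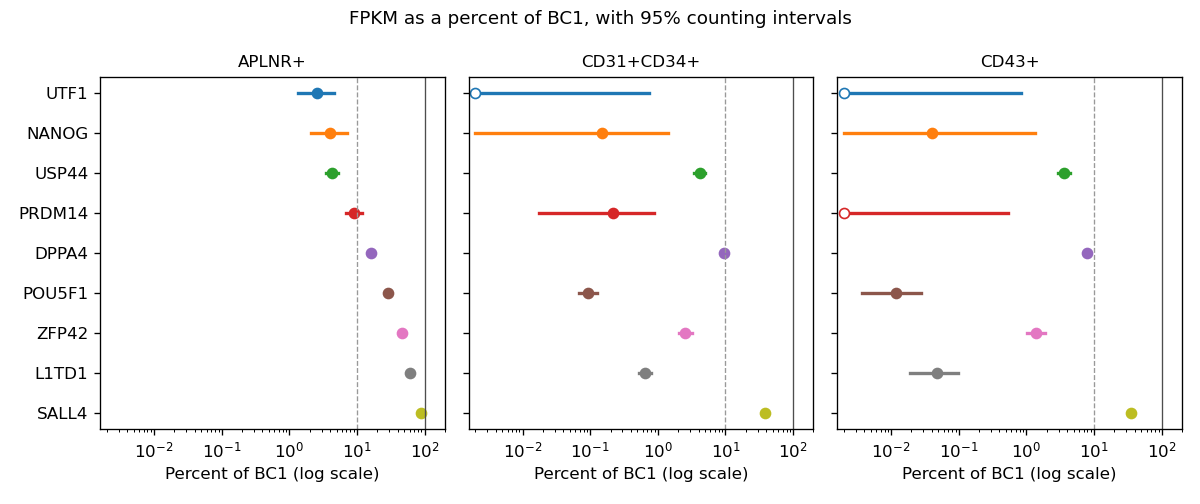
FPKM as a percent of BC1 on a log scale (x axis) for each factor (y axis) in the 3 differentiated populations, with exact 95% counting intervals from the median coding transcript length; open circles at the left edge are values listed at 0, the dashed line is at 10% and the solid line at 100%. In APLNR+ the points run from 2.61% for UTF1 to 88.3% for SALL4, and by CD43+ 8 of the 9 lie below 10%.

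UTF1, NANOG and PRDM14 were below 10% of BC1 on day 2 and at or near 0 FPKM on day 5. UTF1, a chromatin-bound protein of undifferentiated cells (chromosome 10, 133230274 to 133231558), went from 23.9 FPKM in undifferentiated cells to 0.625 FPKM on day 2 and was listed at 0 on days 5 and 8. It was 38.2-fold lower in APLNR+ than in BC1 (95% interval 21.7 to 74.6). By its 95% interval the 0 in CD31+CD34+ was at least 134-fold lower than BC1. With a floor of 3 fragments in place of the 0 it was 165-fold lower. Only about 12.0 fragments of UTF1 were left in the APLNR+ library.

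NANOG, the homeodomain factor of the core set (chromosome 12, 7787794 to 7799141), went from 23.6 FPKM in undifferentiated cells to 0.957 FPKM on day 2, 0.0346 FPKM on day 5 and 0.00945 FPKM on day 8. It was 24.6-fold lower in APLNR+ than in BC1 (14 to 47.5) and lower again by 27.7-fold from APLNR+ to CD31+CD34+. The length of the NANOG transcript sets how many fragments stand behind these low values. With its longest coding transcript of 5183 bases they came to 4 fragments on day 5 and 0.998 on day 8, while the median length of 870 bases gave 0.482 and 0.120, under a single fragment. With the longest transcript the second fold had an interval of 10.5 to 104, and with the median length one of 2.43 to 38300, so that its size is poorly known. NANOG has pseudogene copies of nearly the same sequence, and how their fragments were divided is uncertain. NANOGP1 and NANOGP8 were at 1.82 and 1.62 FPKM in BC1 and at 0 and 0.0711 FPKM on day 2. In CD43+ both NANOGP5 (0.0780 FPKM) and NANOGP8 (0.0730 FPKM) were listed above NANOG itself.

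PRDM14, a PR-domain zinc finger protein that represses differentiation genes in pluripotent and germ cells (chromosome 8, 70051651 to 70071693), followed a like course from a smaller first loss. It had 28.8 FPKM in undifferentiated cells, 2.62 FPKM on day 2 and 0.0615 FPKM on day 5, and was listed at 0 on day 8. The value in APLNR+ was 11-fold lower than in BC1 (8.48 to 14.5). At the next transition it was 42.5-fold lower again, with an interval of 9.96 to 528 on about 1.60 fragments. With its longest coding transcript this was 3 fragments and 14.2 to 209, and with its shortest the fragments were too few to give a usable upper bound.

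USP44 was as low on day 2, and its later differences were within counting error. It encodes a deubiquitinase that acts on histones and on the mitotic checkpoint (chromosome 12, 95516560 to 95551490). Its level was 61.1 FPKM in undifferentiated cells and then 2.61, 2.56 and 2.22 FPKM on days 2, 5 and 8. The first difference was 23.4-fold (19.2 to 28.7). The next was 1.02-fold with an interval of 0.776 to 1.34, and the last was 1.16-fold with an interval of 0.868 to 1.54, and both intervals include no difference. About 106 fragments in APLNR+ and 114 in CD31+CD34+ stood behind these values. USP44 and NANOG thus could not be told apart on day 2, at 4.28% and 4.06% of BC1, but on day 5 USP44 was at 4.19% and NANOG at 0.147%.

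DPPA4 also had its largest difference at the first transition, but it went on to lower levels after it. DPPA4, a nuclear protein that works as a pair with DPPA2 at chromatin (chromosome 3, 109326141 to 109337572), had 288.5 FPKM in undifferentiated cells and then 45.8, 27.8 and 22.5 FPKM on days 2, 5 and 8. It was 6.31-fold lower in APLNR+ than in BC1 (5.94 to 6.70), and then 1.65-fold (1.51 to 1.80) and 1.23-fold (1.11 to 1.37) lower at the following transitions. In CD31+CD34+ it was at 9.62% of BC1, with an interval that reached 10.3%. DPPA4 was the highest of the 9 factors in both late populations. DPPA2, its partner, was at 3.57 FPKM in BC1 and 0.125, 0.307 and 0.253 FPKM afterwards, which was 3.50%, 8.60% and 7.08% of BC1. The later DPPA2 values were all below 1 FPKM and are given without a counting interval, so its course after day 2 cannot be read from them.

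POU5F1, ZFP42 and L1TD1 were partly lost by day 2 and had their largest difference from day 2 to day 5. By fold, that later difference was also the larger for PRDM14 (42.5 against 11), NANOG (27.7 against 24.6) and SALL4 (2.30 against 1.13). For NANOG and PRDM14 the interval of the later fold included the size of the first. Of all genes with at least 1 FPKM in BC1, 8.98% had a lower percent of BC1 in APLNR+ than POU5F1. For ZFP42 and L1TD1 this was 15.1% and 22.2%. POU5F1, the POU-homeodomain factor of the core set (chromosome 6, 31164337 to 31180731), went from 1997 FPKM in undifferentiated cells to 572.7 FPKM on day 2, 1.87 FPKM on day 5 and 0.235 FPKM on day 8. It was 3.49-fold lower in APLNR+ than in BC1 (3.42 to 3.56) and 307-fold lower in CD31+CD34+ than in APLNR+ (227 to 426). As a point value this was the largest fold at a single transition between values above 0 for any of the 9. The intervals of NANOG and PRDM14 at the same transition covered it, so the ranking is not settled. With the shortest coding transcript of POU5F1 its interval was 119 to 1140, on 3.96 fragments in CD31+CD34+. The difference took POU5F1 from the highest of the 9 in APLNR+ to the fourth in CD31+CD34+.

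At these low levels the copies of POU5F1 matter. The retrocopy POU5F1P3 had 10.7, 2.86, 0.424 and 0.117 FPKM from undifferentiated cells to day 8, or 0.537%, 0.499%, 22.7% and 49.6% of the FPKM of POU5F1. POU5F1P4 and POU5F1B reached 5.10 and 1.48 FPKM in BC1 and were at 0 in CD43+. How fragments were divided among these copies is uncertain, so the values of POU5F1 in the last 2 populations are too. The opposite-strand gene TCF19 overlaps POU5F1 and was between 0.811 and 2.10 FPKM, and whether strand was used in counting is not given in the sources used here.

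ZFP42, a zinc finger protein also known as REX1 and a common marker of the undifferentiated state (chromosome 4, 187995771 to 188005050), had 64.5 FPKM in undifferentiated cells and then 29.6, 1.64 and 0.901 FPKM on days 2, 5 and 8. It was 2.18-fold lower in APLNR+ (2.04 to 2.32), 18.1-fold lower in CD31+CD34+ (14.5 to 22.8) and 1.82-fold lower in CD43+ (1.25 to 2.69), each against the population before. L1TD1, an RNA-binding protein derived from the L1 retrotransposon (chromosome 1, 62194831 to 62212328), had 189.7 FPKM in undifferentiated cells and then 116.0, 1.23 and 0.0909 FPKM. Its first difference was 1.63-fold (1.59 to 1.68) and its second 94.0-fold (77.5 to 115). It was again 13.6-fold lower in CD43+ than in CD31+CD34+ (6.36 to 34.6), on 6.99 fragments. A pseudogene on the opposite strand that overlaps L1TD1, AL162739.1, was at 3.65 FPKM in BC1 and at 0 on days 5 and 8. ZFP42, L1TD1 and POU5F1 thus kept from 28.7% to 61.2% of BC1 on day 2 and at most 2.54% on day 5.

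SALL4 was the factor that stayed. SALL4, a spalt-family zinc finger protein that works with POU5F1 and is also known from blood stem cells (chromosome 20, 51782331 to 51802520), had 53.9 FPKM in undifferentiated cells and then 47.6, 20.7 and 18.9 FPKM on days 2, 5 and 8. It was 1.13-fold lower in APLNR+ (1.06 to 1.21) and 2.30-fold lower in CD31+CD34+ (2.12 to 2.51). From CD31+CD34+ to CD43+ the difference was 1.10-fold, and its interval of 0.987 to 1.22 included no difference. At 35.0% of BC1 in CD43+, SALL4 was the only one of the 9 above 10% there. Of all genes with at least 1 FPKM in BC1, 43.7% had a lower percent of BC1 than SALL4 in APLNR+ and 20.6% in CD43+.

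**Figure D3:**
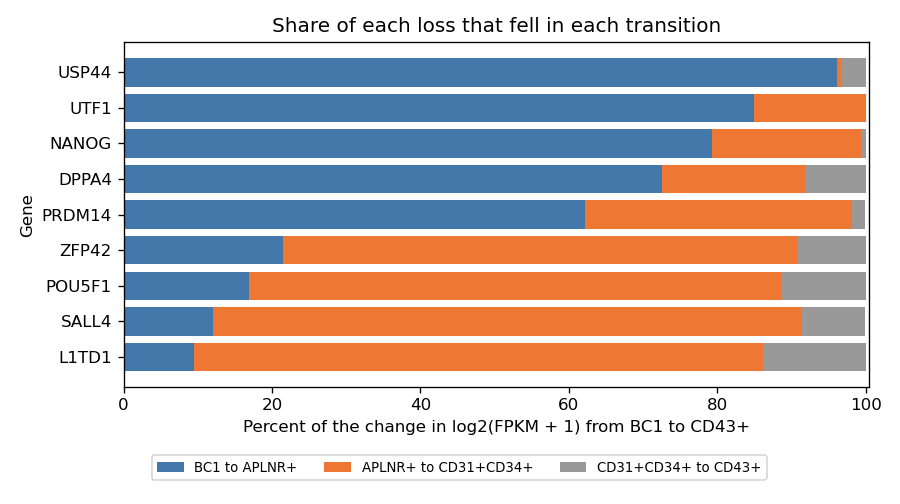
Percent of the whole change in log2(FPKM + 1) from BC1 to CD43+ (x axis) that fell in each of the 3 transitions (colours), for each factor (y axis). The first transition holds 96.1% of the loss of USP44 and 9.45% of that of L1TD1.

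The same contrast was seen when each loss was divided over the transitions on the scale log2(FPKM + 1), which understates the differences of low genes. The first transition held 96.1% of the loss of USP44, 84.9% of that of UTF1, 79.3% of that of NANOG, 72.6% of that of DPPA4 and 62.1% of that of PRDM14. It held 21.5% for ZFP42, 16.9% for POU5F1, 12.0% for SALL4 and 9.45% for L1TD1, and no factor lay between these groups. With a pseudocount of 0.1 in place of 1, the shares of NANOG, UTF1 and PRDM14 came to 57.8%, 63.9% and 41.7%, while that of USP44 was 95.2%. PRDM14 then lay between the groups.

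Falls of at least 2 on this scale were counted at each transition over the 17137 genes that reached 1 FPKM in any library. From BC1 to APLNR+, 5 of the 9 factors (UTF1, NANOG, USP44, PRDM14 and DPPA4) fell by this much, against 2.29% of all genes. From APLNR+ to CD31+CD34+ the 3 factors POU5F1, L1TD1 and ZFP42 fell by this much, against 3.15% of all genes, and none of these had done so before. With a pseudocount of 0.1 the second count was 6, with NANOG, PRDM14 and UTF1 added. From CD31+CD34+ to CD43+ none of the 9 fell by this much, against 4.32% of all genes, and with a pseudocount of 0.1 POU5F1 and L1TD1 did. With a pseudocount of 1, a gene below 3 FPKM cannot fall by this much. In CD31+CD34+ only DPPA4 and SALL4 were above that level, so the last count says nothing of the other factors. In APLNR+ NANOG, UTF1, PRDM14 and USP44 were below it, so the second count says nothing of these.

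Measured from BC1, 8 of the 9 factors were below 10% in CD31+CD34+, where 6.85% of all genes were, and the same 8 were in CD43+, where 11.1% of all genes were. The members' median was 0.651% of BC1 in CD31+CD34+ and 0.0479% in CD43+, against 93.8% and 84.6% over all genes. In these populations UTF1, POU5F1, NANOG, PRDM14 and L1TD1 were the lowest, and the intervals of neighbours among them overlapped. ZFP42, USP44, DPPA4 and SALL4 followed in this order in both, at 2.54%, 4.19%, 9.62% and 38.3% in CD31+CD34+, with intervals that did not overlap. A place in the order on day 2 therefore did not fix the place on day 5, since USP44 went from the third lowest to the seventh and POU5F1 from the sixth to the second.

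**Figure D4:**
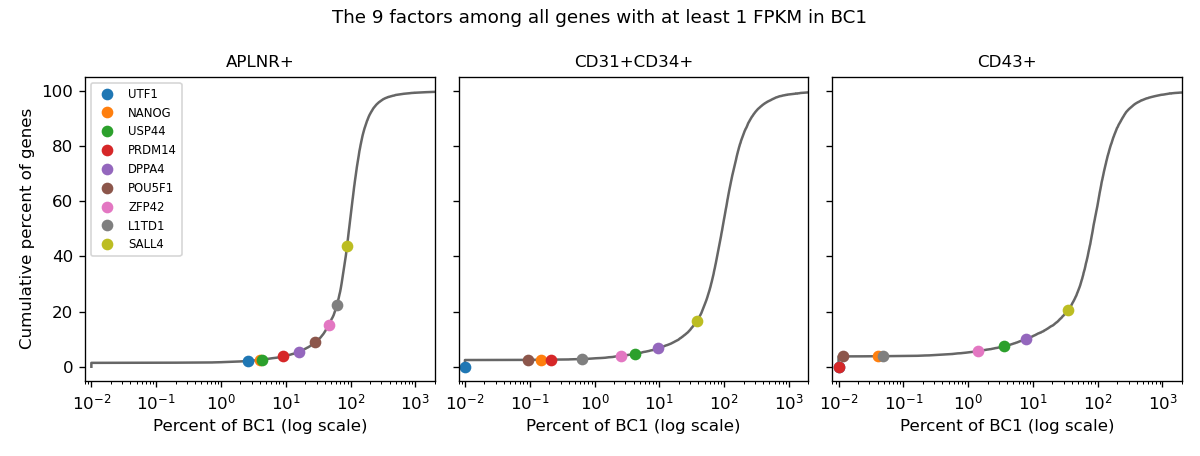
Cumulative percent of the 14335 genes with at least 1 FPKM in BC1 (y axis) by their percent of BC1 on a log scale (x axis) in each differentiated population, with the 9 factors as coloured points; values under 0.01% are drawn at the left edge. SALL4 is the highest of the 9 on each curve, and L1TD1 moves from 22.2% of genes below it in APLNR+ to 2.82% in CD31+CD34+.

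Markers of undifferentiated cells were read beside the factors that were partly kept. SOX2, the third factor of the core set, had 171.7 FPKM in BC1 and 0.766 FPKM on day 2, which was 0.446% of BC1 (0.314 to 0.615), and it was listed at 0 afterwards. ESRG and FOXD3, further marks of undifferentiated cells, were at 0.244% and 0.111% of BC1 in APLNR+. In the same library POU5F1 was at 28.7%, ZFP42 at 46.0% and L1TD1 at 61.2%. The whole list of 5 markers of undifferentiated cells also held SFRP2, at 16.3% of BC1, and its summed level was 736.1 FPKM at the start and then 121.2, 7.20 and 0.236 FPKM. In CD43+, SOX2, FOXD3 and ESRG were all listed at 0, while SALL4, DPPA4 and USP44 were at 18.9, 22.5 and 2.22 FPKM.

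Markers of other cells moved with the populations. The summed level of 5 mesoderm markers, led by MIXL1 and EOMES, was 805.3 FPKM in APLNR+ and at most 6.45 FPKM in the other libraries. That of 5 endothelial markers, led by KDR and TIE1, was highest in CD31+CD34+ at 1196 FPKM, and that of 5 hematopoietic markers, led by ITGA2B and GATA1, was highest in CD43+ at 1401 FPKM. The endoderm list reached 101.7 FPKM in CD31+CD34+, mostly from HHEX at 87.9 FPKM, and SOX17 reached 16.6 FPKM in APLNR+. In CD31+CD34+ the other endoderm markers SOX17, FOXA1, FOXA2 and AFP were at 11.8, 1.56, 0.198 and 0.189 FPKM. Several of the 9 factors are also genes of primordial germ cells, whose 5 markers summed to between 0.779 and 3.07 FPKM. Of these NANOS3 went from a value listed at 0 to 2.89 FPKM in CD31+CD34+, TFAP2C did not exceed 1.15 FPKM, and DPPA3 and DAZL were listed at 0 in both late populations. The neural ectoderm list, led by PAX6 and POU3F2, did not exceed 0.557 FPKM, and the trophoblast list, led by TFAP2A and CDX2, did not exceed 3.40 FPKM. The part of such cells in the levels of the factors was not tested.

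The rest of the pluripotency network was read from a list of 54 genes written from general knowledge, of which 43 had at least 1 FPKM in BC1. In APLNR+ 9 of the 43 were below 10% of BC1 and 10 were above BC1, with a median of 24.5%. In CD31+CD34+ 23 were below 10% and 2 above BC1, and in CD43+ 25 and 2, where 6.85% and 11.1% of all genes were below 10%. Here too the losses were spread out. FOXD3, ESRG, SOX2 and PODXL, a surface sialomucin, were the lowest in APLNR+ among those with at least 10 FPKM in BC1, PODXL at 2.59% of BC1 (2.33 to 2.88). SALL1, OTX2 and VRTN were among the highest. SALL1 was at 673% of BC1, OTX2 at 404% and VRTN at 151%, and in CD43+ they were at 20.7%, 0% and 2.21%.

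By role, the surface and secreted genes of the list were the most often low in APLNR+, with 4 of 9 below 10% of BC1 and none above BC1. Over all genes 3.96% were below 10% in this population. Of 14 transcription factors 2 were below 10% and 5 above BC1, of 12 regulators of chromatin, DNA methylation and RNA 3 were below and 3 above, and of 8 signalling genes none was below and 2 were above. None of the 8 factors of the naive state reached 1 FPKM in BC1. KLF4, the reprogramming factor, was low, at 1.01 FPKM in BC1, and did not follow the loss, with 2.88, 1.18 and 8.72 FPKM on days 2, 5 and 8.

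**Figure D5:**
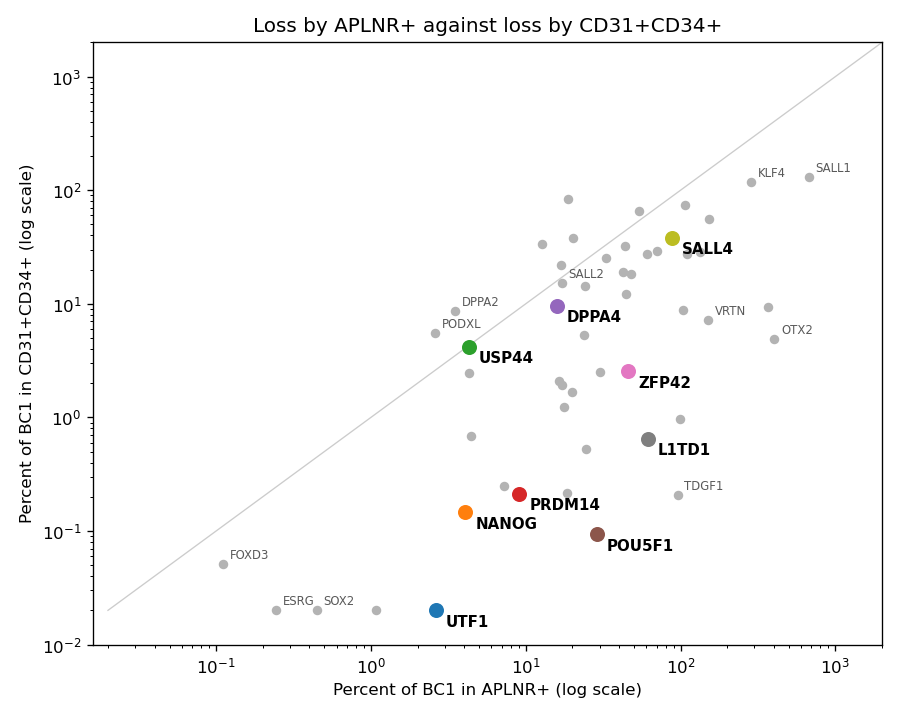
Percent of BC1 in APLNR+ (x axis) against percent of BC1 in CD31+CD34+ (y axis), both on log scales, for the 9 factors (large coloured points) and the 43 other pluripotency genes with at least 1 FPKM in BC1 (grey points, some named); values under 0.02% are drawn at 0.02%, and the line marks equal percents. USP44 lies on the line at 4.28% and 4.19%, whereas POU5F1, at 28.7% and 0.0935%, lies far below it.

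The relatives of the factors did not share their losses in general. In the spalt family, SALL2 was at 114.5 FPKM in BC1 and at 19.6, 17.5 and 19.3 FPKM afterwards, SALL1 peaked in APLNR+ at 112.3 FPKM, and SALL3 was between 2.58 and 7.17 FPKM. SALL4 and SALL2, at 18.9 and 19.3 FPKM, were therefore close in CD43+ although SALL2 had been higher in BC1. The POU factor POU3F1 went with the fast group, from 22.4 FPKM in BC1 to 1.46 FPKM in APLNR+ and 0 in CD31+CD34+, while POU2F1 stayed between 6.88 and 8.90 FPKM. YY1, the gene from which ZFP42 arose, stayed between 23.0 and 28.4 FPKM. The deubiquitinase genes USP49 and USP22 were at 59.3% or more of BC1 throughout. Of the PR-domain genes, PRDM10 and PRDM15 were at 45.4% and 60.2% of BC1 in APLNR+ and at 92.1% and 98.9% in CD31+CD34+, and PRDM4 was at 89.1% or more throughout. PRDM2 was at 324% of BC1 in CD31+CD34+, and PRDM1 and PRDM16, below 1 FPKM in BC1, reached 5.25 and 1.40 FPKM there.

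Genes whose course was most like that of each factor were sought among protein-coding genes with at least 5 FPKM in BC1. The measure was the root mean squared difference of log2 percent of BC1 over the 3 differentiated populations, with 0.1 FPKM added to each value. Where a level is well under 0.1 FPKM, the added amount and the level in BC1 set the percent, so a small value there says little of the course. This holds on days 5 and 8 for NANOG, UTF1 and PRDM14. NANOG was closest to MARVELD3 (0.11) and NMRK2 (0.44), UTF1 to NMRK2 (0.12) and MARVELD3 (0.41), and PRDM14 to LCK (0.37) and CDH1 (0.42), the gene of E-cadherin. In APLNR+, where the levels were higher, MARVELD3 was at 4.25% of BC1, NMRK2 at 2.92%, LCK at 7.80% and CDH1 at 7.24%. ZFP42 was closest to CAMK2N2 (0.17) and LPAR3 (0.21), at 48.0% and 39.8% of BC1 in APLNR+. Both were low genes, at 5.18 and 8.62 FPKM in BC1, and in CD31+CD34+ they were at 0.754% and 1.33% of BC1 without the added amount, against 2.54% for ZFP42. USP44 was closest to COL14A1 (0.17) and DGKK (0.37), again low genes at 6.46 and 6.07 FPKM in BC1. Without the added amount COL14A1 and DGKK were at 1.82% and 0.857% of BC1 in CD43+, against 3.63% for USP44.

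DPPA4 and SALL4 stayed well above 0.1 FPKM and give a plainer reading. DPPA4 was closest to TTC39C (0.27), at 21.2%, 8.32% and 7.08% of BC1, and to the amino acid transporter SLC7A8 (0.31), at 20.5%, 12.4% and 8.34%. SALL4 was closest to the ribosome assembly gene NLE1 (0.07), at 92.0%, 40.7% and 36.3% of BC1, and TMEM120B (0.08), at 93.7%, 36.1% and 32.7%. For POU5F1 the closest were the Nodal coreceptor gene TDGF1 (1.41), which was at 95.8% of BC1 in APLNR+ and 0.206% in CD31+CD34+, and CRABP1 (2.37), at 18.5% and 0.214%. With 0.1 FPKM added, only genes with a very high level in BC1 could come near its late percents. L1TD1 was closest to the zinc finger gene ZIC2 (0.69), at 98.7% and 0.963% of BC1 in APLNR+ and CD31+CD34+. In CD43+ L1TD1 and ZIC2 were at 0.0909 and 0.0343 FPKM, below the added amount. POU5F1 was at 0.235 FPKM there and TDGF1 was listed at 0, so the added amount weighs on these matches too.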

How the data were processed

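The authors deposited 1 table of gene-level FPKM values for 4 libraries, made with an Illumina TruSeq kit from total RNA. Per the labels, the submitters' processing notes name BWA, Bowtie and RSEM, without versions or roles, and hg19. The positions in the table, counted from 0, are not those of that note: of 55647 identifiers with the same version in GENCODE 29 for GRCh38, 55645 agreed in both ends, and GRCh38 is therefore the build of the positions printed, which are counted from 1. Whether strand was used is not given in the sources used here. No header names the unit, which was inferred from the study's plots of its embryonic stem cell libraries and from column totals that differ between libraries.

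From the deposited FPKM, rows of 1 identifier were summed (90 identifiers had several), and each value was divided by that of BC1. Depth was fitted so that FPKM times transcript length, less a constant, gave whole fragments for single-transcript genes of at least 1000 bases, and between 84.6% and 86.5% of low values fell within 0.1 of a whole number. The constant came to between 258 and 281 bases. Fragments of other genes use the median length of their coding transcripts and are approximate. Since there were no replicates, no test was run. Genes below 10% of BC1 were counted over genes with at least 1 FPKM in BC1, and falls of at least 2 in log2(FPKM + 1) over genes that reached 1 FPKM in any library.

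The factors and lists were chosen with earlier results of these data known. Named were the 9 factors, the sorting markers, SOX2 and KLF4, the 4 lowest and 4 highest other pluripotency genes in APLNR+ with at least 10 FPKM in BC1, relatives with at least 1 FPKM in a library, the 2 nearest genes of each factor and the 2 highest genes of each marker list; some genes that the rule names are not reported here. The retrocopies, TCF19, AL162739.1 and B2M, and SFRP2, DPPA3, DAZL, FOXA1, FOXA2 and AFP among the markers, were named after their values were seen. Python 3.11.15, numpy 2.4.6, pandas 2.3.3 and scipy 1.17.1 were used.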

Additional observations from a re-analysis of the deposited data

How the results depend on the processing

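No paired analysis was possible because each population had 1 library and no test was run, and for the same reason no replicate could be left out. Of 71 recomputed values of the main results, 62 stayed within the limits set and 9 did not. The limit was 1.5 times for a count or an interval bound, and the 95% counting interval for a percent or a share, which is narrower the more fragments stand behind a value. Scaling to TPM, scaling by the median ratio to BC1 (which was 1.05, 1.02 and 0.965 in APLNR+, CD31+CD34+ and CD43+) and keeping the highest row of an identifier moved none of them past those limits. With a pseudocount of 0.1, the falls of at least 2 were 6 in place of 3 at the second transition and 2 in place of 0 at the last, and the median share of the loss in the first transition was 41.7% in place of 62.1%. A threshold of 1 gave 5 and 2 falls at these transitions. With 0.1 FPKM added to every value, 5 of 9 factors kept their place in the order in CD31+CD34+ and 4 of 9 in CD43+, and the median percent of BC1 in CD43+ was 0.462% in place of 0.0479%. With a line at 20% of BC1, 18 other pluripotency genes in place of 9 were below it in APLNR+. Of 36 recomputed values of single factors, 10 moved, all of them shares of the loss or bounds of counting intervals, and each share kept its sign. In CD31+CD34+ and CD43+ the depth could not order neighbours among UTF1, NANOG, PRDM14, POU5F1 and L1TD1. POU5F1 and L1TD1 were not neighbours in CD31+CD34+, and their intervals there, 0.0674% to 0.126% and 0.531% to 0.789%, did not overlap.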
